A study of Mus musculus with 74 samples.

Results

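To find which genes carried H3K9me3 in cloned but not in fertilized 1-cell mouse embryos, or the reverse, the peak list of embryos cloned by nuclear transfer from somatic cells (SCNT) at 14 h post-activation (14 hpa) was compared with that of fertilized zygotes at pronuclear stage 5 (PN5). The comparison covered the 20807 protein-coding genes that GENCODE M21 places on the 19 autosomes of the mm10 genome. A gene body, from the first to the last annotated base, counted as marked with 50% or more of its bases under peaks and as not marked with under 10%. A promoter, taken as 1 kb on either side of the gene start, counted as marked if 50% or more of it lay under a peak or if a peak had 50% or more of its own length inside it. In 2680 of the 20807 genes the body or the promoter was marked in one list and not in the other. These genes are called 14 hpa-only or PN5-only below.

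The SCNT embryos were made from B6D2F1 females. Nuclei of cumulus cells (CC), the somatic cells that surround the oocyte, were injected into oocytes stripped of their own chromosomes, which were then activated with strontium chloride in the presence of cytochalasin B and cultured to 14 hpa. The fertilized zygotes came from C57BL/6 females mated with C57BL/6 males (C57BL/6j in the methods) and were cultured to PN5, the last pronuclear stage before the first cleavage. The methods give the age of the females of both strains as 8–10 weeks. By the labels, 4 immunoprecipitated and 4 input libraries stood behind the 14 hpa list and 2 and 2 behind the PN5 list, each from pooled embryos, and the methods describe the PN5 libraries as taken from an earlier publication. Embryo type, strain, study, and the sex of the embryos (the clones descend from female cells) therefore cannot be told apart in any difference given here.

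The libraries of a group were pooled before peaks were called, so each coverage is a single value with no replicate error, and no test across samples was possible. Intervals are 95% Wilson intervals over genes and cover counting error only. On the autosomes the 14 hpa list held 144004 peaks over 207 Mb and the PN5 list 127311 peaks over 129 Mb. The median peak was 866 bp at 14 hpa and 671 bp in PN5, with median fold enrichments over input of 2.73 and 2.84. The weakest peak kept had a −log10 q of 1.52 at 14 hpa and 1.3 in PN5, so weaker peaks remained in the PN5 list. Depth per library was not analysed here. How reads that map to several places were treated is not given in the sources used here, so values of near-identical genes in large families are uncertain.

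H3K9me3, trimethylation of lysine 9 of histone H3, is laid down by the SUV39H and SETDB1 enzymes, is bound by HP1 proteins and marks silent heterochromatin. In differentiated cells it covers repeats and many tandem gene families that are used in other tissues. After fertilization the paternal genome gains the mark anew, whereas a transferred nucleus brings the pattern of its donor cell. In SCNT embryos the mark is known as a barrier to the activation of genes that fertilized embryos switch on at the first divisions.

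The promoters of 5 genes marked at 14 hpa and 5 marked in PN5 are shown because they come from the gene groups that the results turn on. Each is the 250 bases before the RefSeq gene start on GRCm38.p6, read in the direction of transcription, with every CG dinucleotide in capitals. The 14 hpa-only promoters below were covered over 100% of the printed bases at 14 hpa and in CC and over 0% in PN5. At 6 hpa the cover was 0% for Obox7, Psg29 and Tdpoz4, 100% for Obox3 and 73.2% for Nlrp5. Full cover in CC is not typical of the class, as 42.7% of all 14 hpa-only promoters were marked in CC.
Obox7 (chr7:14659458-14659707, plus strand): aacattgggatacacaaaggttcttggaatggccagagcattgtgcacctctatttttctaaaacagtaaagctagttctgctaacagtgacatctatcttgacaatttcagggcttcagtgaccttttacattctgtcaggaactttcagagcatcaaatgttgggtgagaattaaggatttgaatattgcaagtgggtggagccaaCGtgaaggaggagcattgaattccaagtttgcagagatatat
Obox3 (chr7:15639778-15640027, minus strand): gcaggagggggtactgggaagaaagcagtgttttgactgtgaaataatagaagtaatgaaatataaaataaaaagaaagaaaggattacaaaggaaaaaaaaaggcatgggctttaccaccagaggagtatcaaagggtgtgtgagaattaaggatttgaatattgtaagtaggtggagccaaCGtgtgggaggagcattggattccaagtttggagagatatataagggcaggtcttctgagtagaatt
Psg29 (chr7:17203227-17203476, plus strand): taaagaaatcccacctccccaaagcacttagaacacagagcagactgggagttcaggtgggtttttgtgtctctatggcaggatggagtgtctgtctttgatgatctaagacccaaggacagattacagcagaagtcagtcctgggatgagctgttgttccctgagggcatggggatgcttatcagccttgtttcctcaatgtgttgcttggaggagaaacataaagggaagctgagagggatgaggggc
Tdpoz4 (chr3:93796148-93796397, plus strand): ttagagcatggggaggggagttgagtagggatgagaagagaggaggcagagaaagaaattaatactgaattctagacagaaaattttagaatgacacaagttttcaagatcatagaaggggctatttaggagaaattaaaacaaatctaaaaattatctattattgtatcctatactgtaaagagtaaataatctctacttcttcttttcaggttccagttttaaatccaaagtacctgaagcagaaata
Nlrp5 (chr7:23385639-23385888, plus strand): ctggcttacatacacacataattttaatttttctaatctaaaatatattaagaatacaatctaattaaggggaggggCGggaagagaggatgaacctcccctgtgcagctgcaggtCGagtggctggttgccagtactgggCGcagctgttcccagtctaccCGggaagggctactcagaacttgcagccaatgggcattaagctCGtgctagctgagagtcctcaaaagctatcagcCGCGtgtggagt
The PN5-only promoters below were covered over 0% at 14 hpa and in CC. In PN5 the cover of the printed bases was 90.8% for Daxx and 100% for the other four.
Serpina1a (chr12:103863620-103863869, minus strand): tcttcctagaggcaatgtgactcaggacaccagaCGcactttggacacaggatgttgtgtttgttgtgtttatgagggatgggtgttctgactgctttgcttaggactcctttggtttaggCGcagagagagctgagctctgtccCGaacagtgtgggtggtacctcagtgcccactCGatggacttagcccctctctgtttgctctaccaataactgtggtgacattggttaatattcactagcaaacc
Serpina1c (chr12:103904951-103905200, minus strand): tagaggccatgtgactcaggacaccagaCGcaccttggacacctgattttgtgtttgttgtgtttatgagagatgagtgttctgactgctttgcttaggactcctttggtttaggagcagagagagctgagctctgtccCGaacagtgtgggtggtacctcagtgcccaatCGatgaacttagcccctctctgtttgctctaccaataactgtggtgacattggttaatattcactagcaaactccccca
Serpina3a (chr12:104112474-104112723, plus strand): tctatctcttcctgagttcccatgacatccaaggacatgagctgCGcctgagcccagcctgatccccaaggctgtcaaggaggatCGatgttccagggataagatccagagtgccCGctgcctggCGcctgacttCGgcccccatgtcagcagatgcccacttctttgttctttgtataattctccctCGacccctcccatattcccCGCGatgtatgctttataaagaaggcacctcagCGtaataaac
Daxx (chr17:33909195-33909444, plus strand): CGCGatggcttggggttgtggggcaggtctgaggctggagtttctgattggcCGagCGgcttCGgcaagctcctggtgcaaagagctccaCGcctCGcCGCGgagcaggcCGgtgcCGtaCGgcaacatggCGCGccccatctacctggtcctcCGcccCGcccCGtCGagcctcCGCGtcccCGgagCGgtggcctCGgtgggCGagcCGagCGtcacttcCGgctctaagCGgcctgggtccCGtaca
Mcts2 (chr2:152686898-152687147, plus strand): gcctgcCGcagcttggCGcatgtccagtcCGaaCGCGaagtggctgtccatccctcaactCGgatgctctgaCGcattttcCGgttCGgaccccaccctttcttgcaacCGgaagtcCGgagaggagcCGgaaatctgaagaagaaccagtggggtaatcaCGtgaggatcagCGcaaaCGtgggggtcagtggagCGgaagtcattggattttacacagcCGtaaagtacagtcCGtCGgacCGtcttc
The 5 windows marked at 14 hpa hold 1, 1, 0, 0 and 7 CG dinucleotides in the order printed, and the 5 marked in PN5 hold 4, 3, 9, 29 and 20. Over all 31365 autosomal RefSeq windows of this length the median was 6 CG, and 18.5% held at most 1. Among the 978 windows that matched genes with a 14 hpa-only promoter, 25.7% (23.0–28.5%) held at most 1 CG, against 13.6% (11.8–15.6%) of the 1243 windows of genes with a PN5-only promoter. The median was 6 CG in the first of these groups, as over all windows, and 9 CG in the second. The printed windows of Obox7, Obox3, Psg29 and Tdpoz4 thus hold fewer CG than is typical of 14 hpa-only promoters. Serpina1a and Serpina1c, neighbouring copies, were identical at 234 of 256 aligned positions (91.4%). The windows of the homeobox genes Obox7 and Obox3 were less alike over their full length (56.2% of aligned positions identical). Both nevertheless hold the stretch gtgagaattaaggatttgaatattg and, after it, ggtggagccaaCGtg, nearer the gene start in Obox7 than in Obox3. Between families identity was 47.5% for Obox7 and Nlrp5 and, within the serpins, 50.2% for Serpina1a and Serpina3a.

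At 14 hpa 292 gene bodies were marked that PN5 zygotes lacked, which is 1.40% of all genes (1.25–1.57%). In PN5, 192 bodies were marked that the SCNT embryos lacked, 0.923% of all genes (0.802–1.06%). A further 131 bodies were marked in both, and 15332 in neither. The balance between the classes depended on list length and threshold. With the 14 hpa list cut from its weakest peaks to the 129 Mb of the PN5 list there were 134 bodies 14 hpa-only and 265 PN5-only, and with bodies called marked from 25% cover there were 665 and 699. With any peak base counted, PN5 zygotes had more genes touched, 11586 (55.7%) against 9273 (44.6%), and cover was higher in PN5 in 8493 genes and higher at 14 hpa in 4905. The longer 14 hpa list thus lay over fewer genes but filled more of them past 50%.

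Most bodies in either class held no called peak in the other embryo, which is not the same as the absence of any H3K9me3. Of the 292 bodies marked at 14 hpa, 226 held no PN5 peak base and 61 were covered from end to end. Of the 192 PN5-only bodies, 160 held no 14 hpa peak base and 19 were covered throughout. Among bodies near the limits, Vmn2r56 was kept at 50.6% covered at 14 hpa while Cyp3a11 fell out at 49.95%, and Gm5592 was kept at 9.97% covered in PN5 while Defb38 fell out at 10.1%. On the PN5 side Sox4 was kept at 50.01% and Atp6v1fnb fell out at 49.9%, and Hjurp was kept with 9.80% covered at 14 hpa while Mdh2 fell out at 10.6%.

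The other SCNT lists and the donor cells were not used to choose the genes, and there the classes looked unlike each other. Of the 292 bodies 14 hpa-only, 207 (70.9%, 65.4–75.8%) were also marked in CC, with a median cover of 79.2% there, 150 (51.4%) at 6 hpa, 84 (28.8%) in 2-cell embryos and 32 (11%) in the trophectoderm (TE) of the blastocyst. Of the 192 bodies PN5-only, 4 (2.08%) were marked in CC, 15 (7.81%) at 6 hpa, 7 (3.65%) in 2-cell embryos and 2 (1.04%) in TE. CC had no peak base in 178 of these 192 bodies. Over all genes 4.11% of bodies were marked in CC, 3.29% at 6 hpa and 1.62% in 2-cell embryos. The bodies marked in both embryos were close to the 14 hpa-only class in CC, at 69.5%, but stayed more often marked in 2-cell embryos, at 54.2%.

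**Figure D1:**
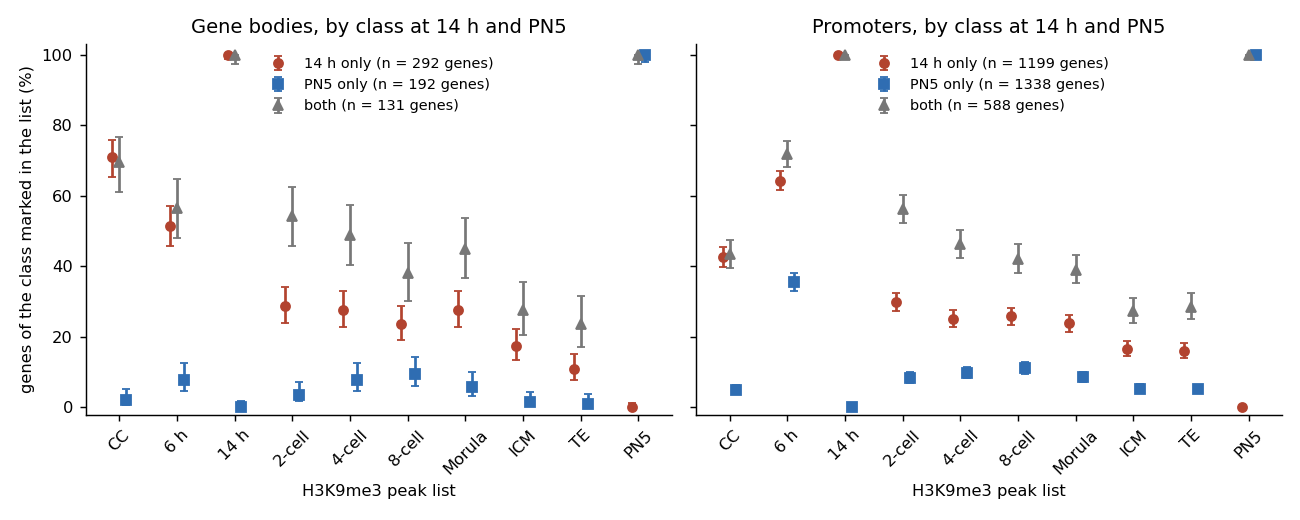
Share of the genes of each class (vertical axis, %) that were marked in each of the 10 peak lists (horizontal axis), for gene bodies and for promoters; points are shares of genes, bars are 95% Wilson intervals, and the 14 hpa and PN5 points are fixed by the classes. Bodies marked at 14 hpa and not in PN5 were marked in CC in 70.9% of cases, bodies marked in PN5 and not at 14 hpa in 2.08%.

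The same contrast held for promoters, with 1 exception at 6 hpa. There were 1199 promoters 14 hpa-only (5.76% of all) and 1338 PN5-only (6.43%), and this balance turned to 996 and 623 when peaks with a −log10 q under 2 were left out of both lists. Of the 14 hpa-only promoters 512 (42.7%) were marked in CC, where the share over all genes was 7.85%, and 770 (64.2%) at 6 hpa. Of the PN5-only promoters 67 (5.01%) were marked in CC, but 476 (35.6%, 33.1–38.2%) at 6 hpa, where the share over all genes was 29.9%. In 2-cell embryos the shares were 29.9% and 8.37%, against 6.39% of all promoters. Of the bodies 14 hpa-only, 216 also had a 14 hpa-only promoter, and of the bodies PN5-only, 118 had a PN5-only promoter.

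Genes of the 14 hpa-only and PN5-only classes were of similar length but of different base composition. The median GC content of the body was 44.4% for the 14 hpa-only genes, 53.7% for the PN5-only genes and 45.4% for all genes. Promoters low in CpG belonged to 217 of the 292 genes 14 hpa-only (74.3%), to 86 of the 192 PN5-only (44.8%) and to 31.7% of all genes. Both classes held short genes, with medians of 3276 and 3170 bp against 17629 bp for all genes. Of all genes under 2 kb, 7.22% were 14 hpa-only and 4.07% PN5-only, and of those of 2 to 5 kb 3.87% and 3.03%. The repeat-masked share of the body was below the 22.4% of all genes in both, at 15.6% and 8.60%, whereas bodies marked in both embryos had 32.1%.

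**Figure D2:**
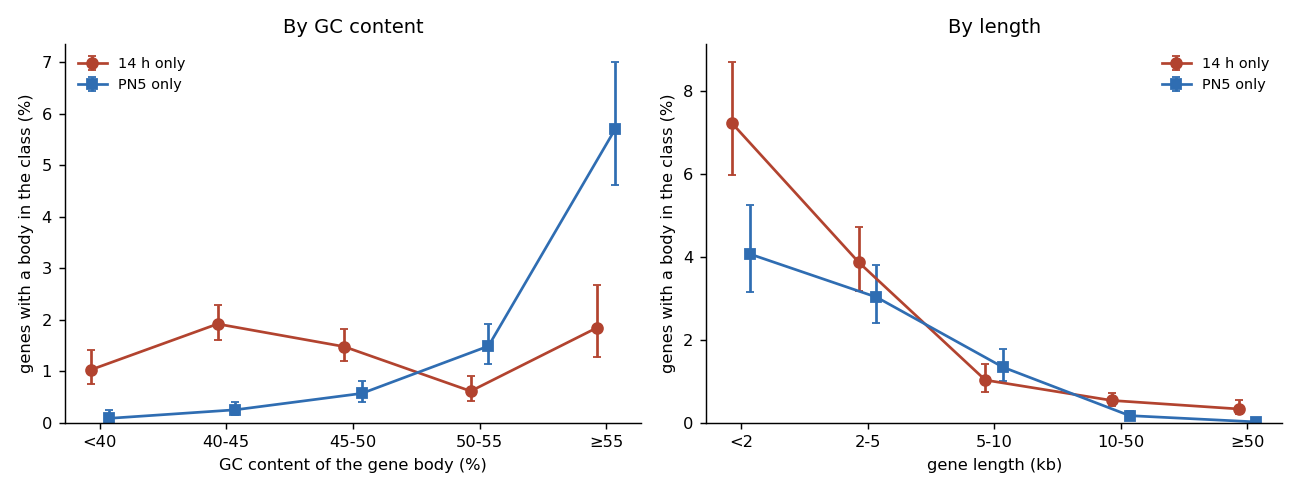
Share of genes with a body in each class (vertical axis, %) by GC content of the body and by gene length (horizontal axes, bins); points are shares of all genes in the bin and bars 95% Wilson intervals. Among bodies of 55% GC or more 5.70% were PN5-only and 1.85% 14 hpa-only, while among bodies of 40 to 45% GC the shares were 0.252% and 1.92%.

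Long genes were rare in both classes, and most of all in the PN5-only class. Of the 4787 genes of 50 kb or more, 16 were 14 hpa-only (0.334%) and 1, Serpina1b, was PN5-only (0.0209%). Over all genes the shares were 1.40% and 0.923%. The longest of the 16 was Tmem132d (651 kb, chr5:127781630-128433077), which encodes a membrane protein of neurons and oligodendrocytes. Peaks covered 96.7% of Tmem132d in CC, 70.0% and 79.9% at 6 and 14 hpa, 42.9% in 2-cell, 35.7% in 4-cell and 31.8% in 8-cell embryos, 34.5% in the morula, 14.7% in the inner cell mass (ICM) and 18.4% in TE, against 5.84% in PN5. The gene was thus covered most in the donor cells and least in the fertilized zygote. Spock1 (487 kb), for a secreted proteoglycan, was covered over 51.9% at 14 hpa and 7.07% in PN5, and Caln1 (478 kb), for the calcium-binding protein calneuron 1, over 53.7% and 9.93%. Srrm4 (153 kb), for a splicing factor of neurons, was covered over 79.6% in CC, 70.5% at 14 hpa and 3.56% in PN5. Hs3st2, a heparan sulfate sulfotransferase gene, had 55.1% and 7.04%, and Wasf3, a regulator of actin assembly, had 66.5% and 6.90%. Except for Spock1, whose cover stayed between 44.4% and 51.9% from CC to the 8-cell stage, these long genes were covered less at the 2-cell stage than at 14 hpa.

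Members of the gene families examined made up 129 of the 292 bodies 14 hpa-only (44.2%, 38.6–49.9%) and 41 of the 192 PN5-only (21.4%, 16.1–27.7%), with 14.9% of all genes in the same lists of families. The families were chosen with earlier results of these data known, so these shares are a description and not independent evidence. Over all genes 1.40% of bodies were 14 hpa-only and 0.923% PN5-only. The shares of all genes set beside the family lists are not matched for gene length, and short genes fell in both classes more often. On the 14 hpa side the families included those of reproduction, host defence, chemical sensing and detoxification. On the PN5 side the largest shares were those of a family of protease inhibitors and of proteins of the skin.

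**Figure D3:**
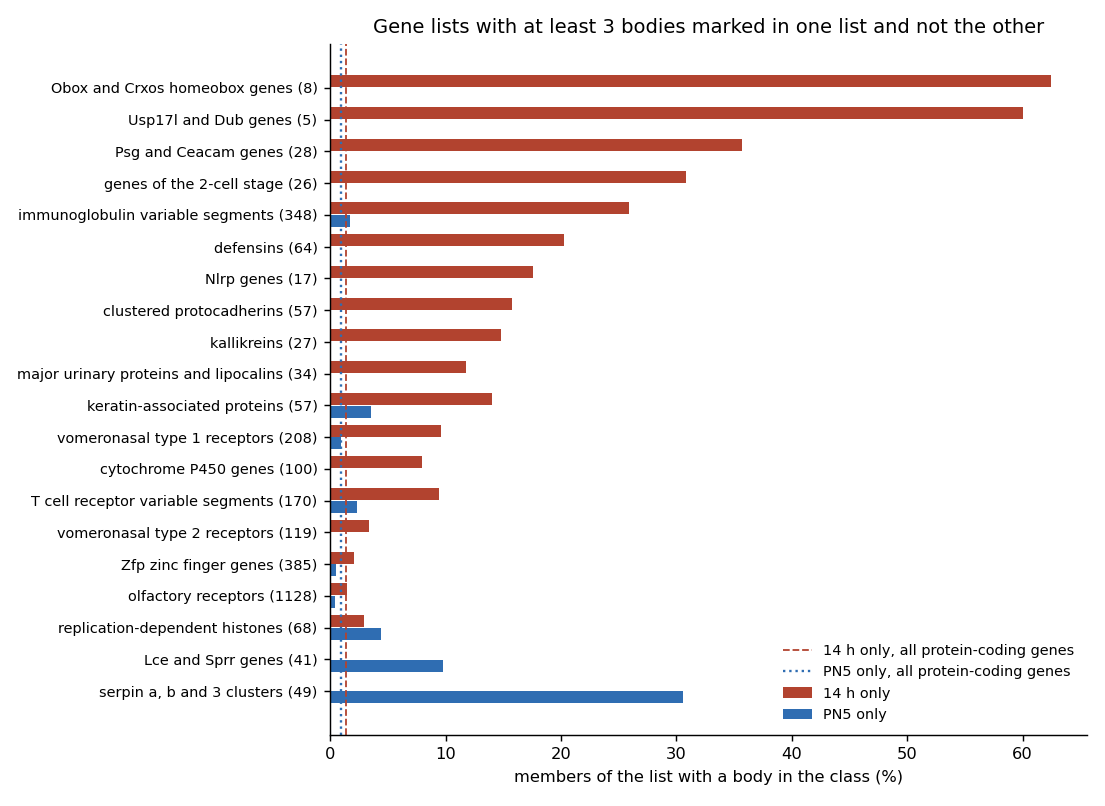
Share of the members of each gene list (horizontal axis, %; number of members in parentheses) whose body was 14 hpa-only (red) or PN5-only (blue), for lists with at least 3 such bodies; the dashed and dotted lines give the shares over all protein-coding genes, 1.40% and 0.923%. Of the lists shown, the serpins and the Lce and Sprr genes had PN5-only bodies and no 14 hpa-only body.

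The Obox genes, homeobox genes of the oocyte and the early embryo, had the largest 14 hpa-only share of the lists examined, 5 of the 8 Obox and Crxos genes (62.5%), and none was PN5-only. Obox6 was covered over 100% in CC, 93.9% and 98.5% at 6 and 14 hpa, 3.06% at the 8-cell stage and 0% in every other SCNT list and in PN5. Obox8 was covered over 100% in CC, 59.7% and 100% at 6 and 14 hpa, 40.2% at the 2-cell stage and 0% later and in PN5. Both genes were thus filled in the donor cells and at 14 hpa, and bare in the zygote. Obox1 (75.5% at 14 hpa, 4.09% in PN5) and Obox3 (70.3% and 8.46%) have annotated models of 168 and 160 kb that overlap each other, so their values are not independent. Obox7 was covered over 66.5% and 0%. Obox2 missed the class with 69.2% at 14 hpa and 10.9% in PN5, and Obox5 with 41.1% and 0%. Crxos, the most distal of the cluster, was covered over 18.3% and 0%. With the 14 hpa list cut to the PN5 length, 3 of the 8 were 14 hpa-only.

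Genes of the 2-cell stage, which fertilized embryos switch on at genome activation, were 14 hpa-only in 8 of 26 cases (30.8%), with none PN5-only and 1, Duxf3, marked in both. The 8 were Tdpoz3, Tdpoz4, Pramef25, Gm16513, Zscan4e, Usp17lb, Usp17ld and Usp17le. Of the 26 promoters 12 (46.2%) were 14 hpa-only, and those of Tmem92 and Spz1 (7.69%) were PN5-only, against 5.76% and 6.43% of all promoters. Duxf3, of the Dux family of 2-cell regulators, and Sp110 were also covered in the zygote, over 63.8% and 47.5%, against 100% and 96.2% at 14 hpa. Tdpoz3 and Tdpoz4, genes with TRAF and BTB domains, were both covered over 100% in CC and at 14 hpa and 0% in PN5. By the 2-cell stage they had parted, with Tdpoz3 at 95.9% and Tdpoz4 at 0%. Pramef25, of the Prame family of germ-line antigens, had 100% in CC, 25.4% and 74.0% at 6 and 14 hpa, and 0% in PN5 and in 2-cell and later embryos. All 8 genes and pseudogenes of the Zscan4 family, whose products are known for telomere maintenance in 2-cell-like cells, were free of peaks in PN5. Their cover ran from 70.5% to 100% in CC and from 6.46% to 72.4% at 14 hpa, and by the 2-cell list the highest was 1.65%. The lists of Zscan4, Tdpoz and Usp17l genes share members with the 2-cell list, so their counts are not separate evidence.

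The Nlrp family, whose members include cytoplasmic proteins of the oocyte, was 14 hpa-only in 3 of 17 cases (17.6%): Nlrp2, Nlrp4c and Nlrp5. Nlrp5, a maternal-effect gene also called Mater, was covered over 96.2% in CC, 55.3% and 55.3% at 6 and 14 hpa, 21.4% in 2-cell embryos and 2.10% in PN5. Nlrp2 was covered over 85.9% in CC, 51.1% at 14 hpa and 0% in PN5. Other oocyte genes stayed out of the body classes, and Nlrp5 was the only member of the oocyte list of 20 in them. The promoters of Sohlh2 and Lhx8, transcription factors of the young oocyte, and of Zp3, a coat protein of the egg, were 14 hpa-only, and those of Zp1, a further coat protein, and Tle6 were PN5-only.

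The pregnancy-specific glycoproteins (Psg), secreted by the placental trophoblast, and the related Ceacam adhesion molecules were 14 hpa-only in 10 of 28 cases (35.7%), with none PN5-only. Psg21 was covered over 91.9% in CC, 92.2% and 87.3% at 6 and 14 hpa, 54.6% at the 2-cell stage, 42.4% in TE and 0% in PN5. Psg22 was covered over 82.1%, 67.2%, 76.1%, 76.7%, 2.00% and 0% in the same lists. Psg21 and Psg22 were thus still covered at the 2-cell stage, whereas Obox6 was not and the Zscan4 genes hardly were. As whole lists the families did not part in this way. The median cover of the Psg and Ceacam list was 32.9% at the 2-cell stage and 9.85% in TE. For the Obox and Crxos list it was 17.4% and 16.9%. Psg17 was covered less in the donor cells than at 14 hpa, with 16.7% in CC, 47.0% and 66.0% at 6 and 14 hpa and 85.1% at the 2-cell stage, against 8.53% in PN5. Ceacam14 was covered over 75.9% at 14 hpa and 0% in PN5. The count fell from 10 to 3 with the 14 hpa list cut to the PN5 length.

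**Figure D4:**
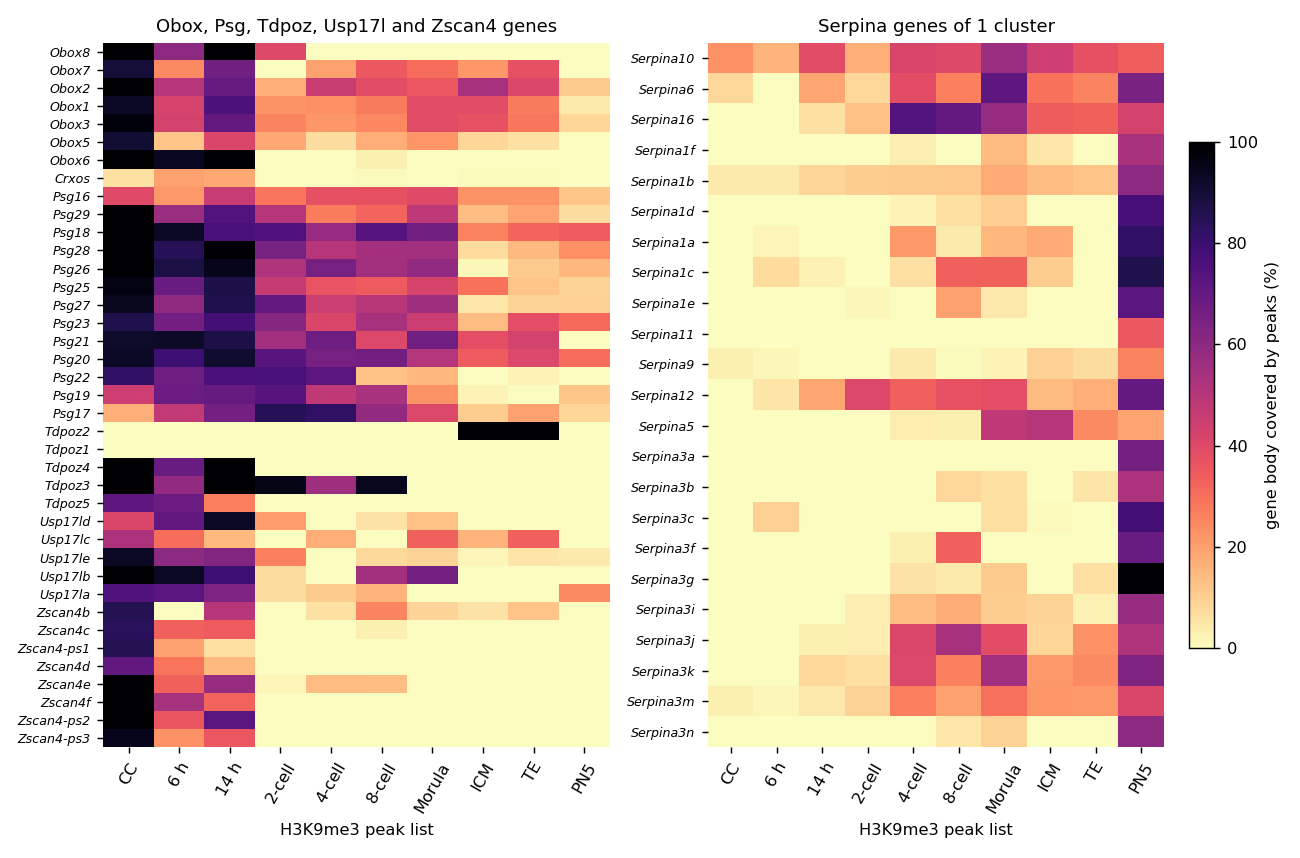
Percent of each gene body covered by peaks (colour) in the 10 lists (columns), for Obox, Psg, Tdpoz, Usp17l and Zscan4 genes on the left and for the Serpina cluster of chromosome 12 on the right, each row a gene. All Obox rows and all Zscan4 rows are darker in CC and at 14 hpa than in PN5, while Serpina1 and Serpina3 rows such as Serpina3g (0% at 14 hpa, 100% in PN5) are dark in the PN5 column.

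Host-defence and sensory families followed with smaller shares. Defensins, antimicrobial peptides of the gut and epididymis, were 14 hpa-only in 13 of 64 cases (20.3%) with none PN5-only, and 4 with the 14 hpa list cut to the PN5 length. Defa5 was covered over 97.3% in CC, 71.2% and 100% at 6 and 14 hpa, 13.1% in 2-cell embryos and 0% in PN5. Defa25 was covered over 26.8% in CC, 0% and 100% at 6 and 14 hpa and 0% in PN5. Vomeronasal type 1 receptors, which detect pheromones, were 14 hpa-only in 20 of 208 cases (9.62%) and PN5-only in 2, and 6 and 5 with the cut list. In CC, 109 of these receptor bodies were marked, so most of those marked in the donor cells were no longer so at 14 hpa, when 27 were. Olfactory receptors were near the shares of all genes or below them, with 16 of 1128 (1.42%) 14 hpa-only and 5 (0.443%) PN5-only. Genes under 2 kb as a whole had 7.22% and 4.07%, and none of these families was compared with genes of its own length. Olfr1453 was covered over 97.3% in CC, 0% and 91.0% at 6 and 14 hpa and 0% in PN5.

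Clustered protocadherins, adhesion proteins that give neurons their surface identity, were 14 hpa-only in 9 of 57 cases (15.8%) and in none PN5-only. Pcdhb9 was covered over 100% in CC, 55.5% and 75.1% at 6 and 14 hpa, 54.2% in 2-cell embryos and 0% in PN5, and Pcdhb7 over 86.6%, 46.7%, 78.2%, 27.0% and 0%. Cytochrome P450 genes, which oxidize steroids and drugs, had 8 of 100 bodies 14 hpa-only (8.00%). The kallikrein proteases had 4 of 27 (14.8%), and the major urinary proteins and lipocalins, carriers of scents and lipids, 4 of 34 (11.8%). None of these lists had a PN5-only body. Cyp2d34 was covered over 28.8% in CC, 66.5% and 100% at 6 and 14 hpa, 100% in 2-cell embryos and 0% in PN5. Mup19 was covered over 100% in CC, 14.5% and 100% at 6 and 14 hpa and 0% in PN5, and Klk5 over 71.7%, 57%, 82.2% and 9.54%. Among keratin-associated proteins, the matrix of the hair shaft, 8 of 57 were 14 hpa-only (14.0%) and 2 PN5-only (3.51%). Krtap12-1 was covered over 100% at 14 hpa and 0% in PN5, and Krtap9-1 over 0% and 100%. Neighbours within this family lay in opposite classes, such as Krtap6-1 and Krtap6-3. Over all genes the shares of bodies were 1.40% and 0.923%, and over genes under 2 kb 7.22% and 4.07%. The families of this paragraph were likewise not compared with genes of their own length.

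The serpins, inhibitors of serine proteases, had the largest PN5-only share of the lists examined, with 15 of 49 bodies PN5-only (30.6%) and none 14 hpa-only. All 15 lay in a single cluster of 23 Serpina genes, Serpina10 to Serpina3n (chr12:103614786-104414329). In this cluster 17 members were marked in PN5 and 0 at 14 hpa. Peaks covered 50% of the whole span in PN5, 5.23% in CC, 4.42% and 8.46% at 6 and 14 hpa, 9.28% at the 2-cell stage, 23.8% in the morula and 14.1% in TE. The Serpina1 genes encode alpha-1-antitrypsin, the elastase inhibitor that the liver secretes. Serpina1a was covered over 0% in CC, 1.57% and 0% at 6 and 14 hpa, 0% in 2-cell embryos and 82.4% in PN5. Serpina1c had 86.5% in PN5 and 2.58% at 14 hpa, Serpina1d 77.0% and 0%, and Serpina1e 72.3% and 0%. The Serpina3 genes encode inhibitors of the antichymotrypsin type. Serpina3g was covered over 100% in PN5, 0% in CC, at 6 and 14 hpa and at the 2-cell stage, and at most 10.8% later, in the morula. Serpina3c had 78.1%, Serpina3f 68.8% and Serpina3a 66.0% in PN5, each with 0% at 14 hpa. Members across the cluster were covered later in the SCNT series, Serpina16 over 74.2% at the 4-cell stage, Serpina10 over 56.7% in the morula, Serpina5 over 50.2% in the ICM and Serpina3k over 55% in the morula. The PN5 peaks over the cluster were weak ones in part: with peaks of a −log10 q under 2 left out, 5 serpin bodies were PN5-only and the cluster as a whole was not. Copies of Serpina1 and of Serpina3 are near-identical in places, and the models of Serpina1b and Serpina1d overlap, as do those of Serpina3k and Serpina3m.

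Genes of the skin barrier had the next largest PN5-only share. Of 41 Lce and Sprr genes, which encode proteins of the cornified envelope, 4 (9.76%) were PN5-only and 0 were 14 hpa-only. Sprr2i was covered over 85.9% in PN5 and 0% from CC to the 4-cell stage, and Lce3a over 69.5% in PN5, 0% at 14 hpa and 73.3% at the 4-cell stage. Without peaks of a −log10 q under 2, 1 was PN5-only and 1 was 14 hpa-only. Among the Gbp and Ifi genes, which interferons induce, 0 of 42 promoters were 14 hpa-only and 11 (26.2%) were PN5-only. Over all genes the promoter shares were 5.76% and 6.43%. Ifitm2, for a membrane protein that restricts virus entry, was covered over 100% in PN5 and over 0% in each of the 9 other lists. Ifit1bl1 was covered over 70.5% in PN5, 5.38% at 14 hpa and 56.0% in the morula. Of 34 MHC class I and II genes, 9 promoters (26.5%) were PN5-only and 1 (2.94%) was 14 hpa-only.

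The PN5-only bodies outside the family lists included the next 5. Daxx, a chaperone of histone H3.3, was covered over 61.1% in PN5 and 0% in CC and at 6 hpa, 14 hpa and the 2-cell stage. Hjurp, the chaperone that loads the centromeric histone CENP-A, was covered over 72.2% in PN5, 39.4% at 6 hpa and 9.80% at 14 hpa. Kdm6b, a demethylase of H3K27, was covered over 52.0% in PN5, 10.6% at 6 hpa and 0% at 14 hpa. Jag2, a Notch ligand, had 50.4% in PN5 and 9.24% and 0% at 6 and 14 hpa, and Abca2, a lipid transporter of the brain, 50.6%, 5.59% and 0%. All of these except Daxx had some cover at 6 hpa, and none had any in CC. Over the whole PN5-only class, 98 of the 192 bodies had no peak base at 6 hpa and 178 had none in CC. Among the 15332 bodies marked in neither embryo, 6857 had no peak base at 6 hpa.

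Histone genes of chromosome 13 were found in both classes. Of the 68 replication-dependent histone genes, Hist1h2bf, Hist1h2ad and Hist1h2bm were PN5-only, and the 2 testis-specific genes Hist1h2aa and Hist1h2ba were 14 hpa-only. Hist1h2bf was covered over 100% in PN5, 71.8% at 6 hpa and 0% at 14 hpa and in CC. Hist1h2ba was covered over 65.4% in CC, 100% at 6 hpa, 14 hpa and the 2- and 4-cell stages, and 0% in PN5. Hist1h2bf and Hist1h2ad share their start region, as do Hist1h2aa and Hist1h2ba, and the promoter peaks of each pair had the same fold. Among histone promoters 10 (14.7%) were PN5-only and 2 (2.94%) were 14 hpa-only, against 6.43% and 5.76% of all promoters.

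The regulators of the blastocyst lineages (22 of pluripotency, 15 of trophectoderm and placenta, 8 of endoderm) had no body in either class, which in lists this small does not set them apart from the 1.40% and 0.923% of all genes. Of their promoters 3 were 14 hpa-only and 2 PN5-only, near the 5.76% and 6.43% of all genes. Sox2, a core pluripotency factor, had a 14 hpa-only promoter, with 97.3% and 44.3% of the promoter covered at 6 and 14 hpa, 21% in 2-cell embryos and 0% in CC and PN5. Klf2, a further pluripotency factor, and Tfap2a, a trophoblast factor, had 14 hpa-only promoters with 9.0% and 9.80% of the promoter covered. Nr5a2, an orphan nuclear receptor of the early embryo, and Ascl2, an imprinted factor of the placenta, had PN5-only promoters, with 11.3% and 35.1% covered. At 6 hpa 100% of the Ascl2 promoter was covered. All 5 promoters lacked peaks in CC, and 4 of the 5 had them at 6 hpa. By the promoter rule 7.85% of all promoters were marked in CC and 29.9% at 6 hpa.

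Among 29 genes for enzymes and readers of H3K9 and DNA methylation, Daxx was the single body in a class, PN5-only. Cover was higher in PN5 in 21 of the 29 and higher at 14 hpa in 4. Kdm4a, a demethylase of H3K9me3, was covered over 22.7% in PN5 and 5.69% at 14 hpa, whereas Kdm4d, of the same enzyme family, was covered over 0% and 8.95%. The promoter of Cbx3, which encodes HP1 gamma, was 14 hpa-only, and that of Dnmt3b, a DNA methyltransferase, was PN5-only. Over all genes, cover was likewise higher in PN5 more often than at 14 hpa.

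Of 35 imprinted genes, Cdkn1c was 14 hpa-only (2.86% of the list), Mcts2 PN5-only (2.86%) and Mkrn3 marked in both, single genes that do not set the list apart from the shares of all genes. Cdkn1c, a maternally expressed inhibitor of the cell cycle, was covered over 93.6% in CC, 80.0% and 73.6% at 6 and 14 hpa, 100% at the 2-cell stage, 0% from the 4-cell stage to the ICM, and 0% in PN5. Mcts2, a paternally expressed retrogene, was covered over 94.7% in PN5 and 0% from CC to the 4-cell stage, but then over 100% at the 8-cell stage, 79.6% in the morula and 100% in ICM and TE. Mcts2 was thus covered in the zygote and in late SCNT stages and bare between. Magel2, a paternally expressed gene, missed the class with 89.6% at 14 hpa and 17.1% in PN5. Among imprinted genes 8 promoters (22.9%) were 14 hpa-only, among them those of Peg10, Plagl1 and Gnas, and 4 (11.4%) were PN5-only, among them that of Igf2. Over all genes the promoter shares were 5.76% and 6.43%.

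H3K9me3 cannot check the labelled cell types in the way expression would. The 20 cumulus cell markers had no body in either class, with a mean cover of 0.562% in CC, 0.717% at 14 hpa and 6.21% in PN5. Meiosis and piRNA genes, silent in somatic cells, had 1 of 28 bodies 14 hpa-only, Rpl10l. Among their promoters 7 were 14 hpa-only, including those of Dazl, Sycp1 and Piwil1, and 2 were PN5-only, those of Piwil4 and Tdrd6. Hox genes, which pattern the body axis, had no body in either class but 8 of 39 promoters 14 hpa-only (20.5%) and 1 PN5-only (2.56%). Their mean cover was 3.61% in CC, 40.9% at 6 hpa and 9.14% at 14 hpa. Over all genes 5.76% of promoters were 14 hpa-only and 6.43% PN5-only, and 1.40% of bodies were 14 hpa-only.

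Whole clusters were compared by joining family members up to 500 kb apart into clusters of at least 5. In 6 of 143 clusters at least 50% of the members were marked at 14 hpa and under 10% in PN5, and in 1, the Serpina cluster, the reverse held. Peaks covered more of the cluster at 14 hpa in 120 and more in PN5 in 23, with the 14 hpa list the longer of the lists compared. Over all assembled autosomes the lists covered 8.86% in CC, 5.77% at 6 hpa, 8.63% at 14 hpa, 5.12% in 2-cell embryos and 5.39% in PN5. On chromosome 7 the Obox cluster (chr7:15388721-15904020) was covered over 84.0% in CC, 41.4% and 63.7% at 6 and 14 hpa, 23.1% in 2-cell embryos and 7.32% in PN5. Beside it, the Ceacam and Psg cluster (chr7:16671331-18821607) had 63.4%, 26.9%, 40.4%, 19.6% and 8.04% in the same lists, and 16 of its 21 members marked at 14 hpa. The Cyp2 cluster (chr7:25802475-27158668) had 73.5%, 32.3%, 48.4%, 23.0% and 7.69%. Each of these clusters was covered most in the donor cells, less at 6 hpa and more again at 14 hpa, and least in PN5. The cover of all autosomes also fell from CC to 6 hpa and rose again at 14 hpa. The part of list length in the order seen at the clusters was not tested.

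The same order was seen in the 3 other clusters of the class. A cluster of 18 zinc finger genes (chr4:145510759-147848366) was covered over 72.3% in CC, 46.7% and 58.1% at 6 and 14 hpa and 12.9% in PN5. The Cyp3a cluster (chr5:145345279-146113287) was covered over 88.2%, 40.9%, 62.7% and 23.3%. It had 4 of 8 members marked at 14 hpa, but none of its genes was 14 hpa-only, since each kept 10% or more of cover in PN5 or stayed under 50% at 14 hpa. The immunoglobulin heavy-chain variable segments (chr12:113572927-116010093) were covered over 61.4%, 19.8%, 33.9% and 6.65%, with 99 of 185 segments marked at 14 hpa and 11 in PN5. With the 14 hpa list cut to the PN5 length, 2 of the 143 clusters were 14 hpa-only and 1 PN5-only.

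Neighbouring genes of the same class were joined into runs whether or not they shared a family. Runs of at least 3 consecutive genes held 68 of the 292 bodies 14 hpa-only (23.3%, 18 runs) and 14 of the 192 PN5-only (7.29%, 2 runs). Both PN5-only runs were serpins, Serpina3a to Serpina3k and Serpina1f to Serpina1e. The 14 hpa-only run with the most genes, 6, was Gm11487 to Gm428 (chr4:73401032-73687558), covered over 33.1% at 14 hpa and 1.42% in PN5. The next, with 5, was Gm3286 to E330014E10Rik (chr5:95510758-95804708), covered over 93.9% in CC, 50.8% and 70.9% at 6 and 14 hpa, 14.6% in 2-cell embryos and 5.53% in PN5. Nearby lay the run Gm7682 to Gm6509 (chr5:94445784-94626848), covered over 98.8% in CC, 81.9% at 14 hpa and 7.17% in PN5. These genes carry clone names only, as did 106 of the 292 bodies 14 hpa-only (36.3%), against 13.5% of the PN5-only bodies and 8.92% of all genes.

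By chromosome, the 14 hpa-only bodies were concentrated on chromosome 7, which held 82 of them (4.05% of its genes) and 23 PN5-only (1.14%). Chromosome 5 held 39 and 9. Chromosome 12, which carries the Serpina cluster, held 7 and 20. More bodies were 14 hpa-only than PN5-only on 9 of the 19 autosomes, fewer on 8 and equally many on 2. Promoters were more often 14 hpa-only on 7 autosomes and more often PN5-only on 12.

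The position of the peaks around the gene start was compared next. In the list that defined a class the maximum near the start follows from the promoter rule, and its values are a description. At the start itself 49.0% of the 14 hpa-only promoters were covered at 14 hpa, falling to 21.1% at 5 kb upstream, and 49.7% of the PN5-only promoters were covered in PN5, falling to 10.6%. In lists that the rule did not use, the same 14 hpa-only starts were covered in 43.0% of cases at 6 hpa, in 32.8% in CC and in 17.6% in 2-cell embryos. In CC the cover was broad, between 24.0% and 33.9% across the 10 kb around the start. The PN5-only starts were covered in 2.08% of cases in CC. At 6 hpa a maximum appeared, with 17.9% at the start and 23.5% at 200 bases downstream, against 5.56% at 5 kb upstream. Marking at 6 hpa was common among promoters in general. By the promoter rule it held for 35.6% of the PN5-only promoters, 29.9% of all promoters and 25.7% of those marked neither at 14 hpa nor in PN5. No profile of all promoters was computed.

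**Figure D5:**
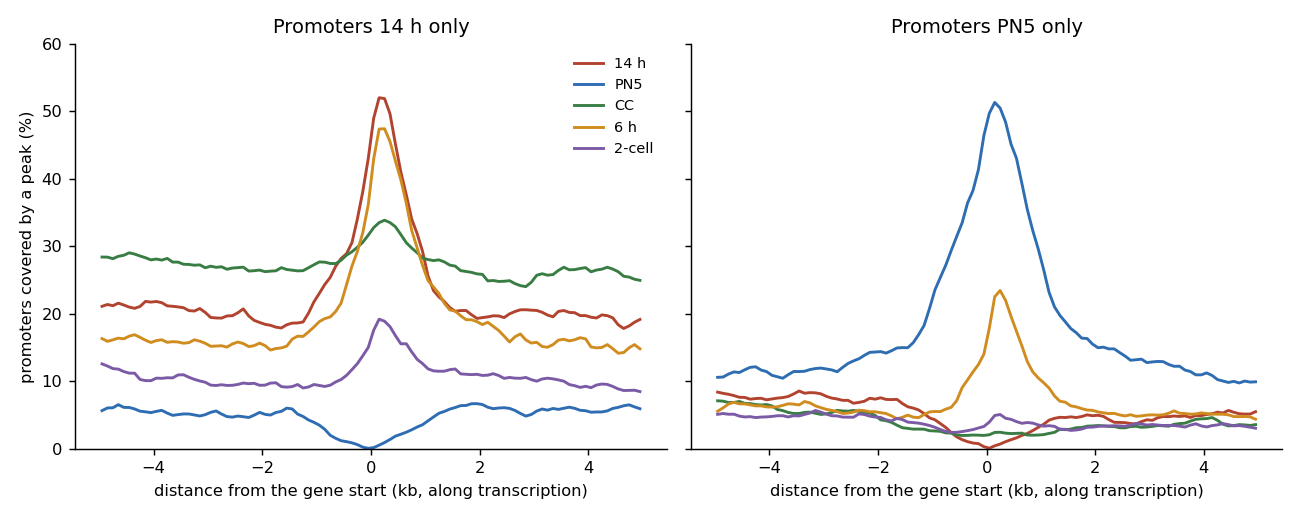
Share of promoters covered by a peak (vertical axis, %) at each distance from the gene start (horizontal axis, kb along transcription) in the CC, 6 hpa, 14 hpa, 2-cell and PN5 lists, for the 14 hpa-only promoters on the left and the PN5-only promoters on the right. At 6 hpa both classes have a maximum near the start, 47.4% and 23.5%, whereas CC cover is broad at the 14 hpa-only promoters and low at the PN5-only promoters. Of all promoters 29.9% were marked at 6 hpa, and their profile is not drawn.

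CpG content separated the promoter classes less than it separated the bodies. Among the 6591 promoters low in CpG, 8.41% (7.76–9.10%) were 14 hpa-only and 6.69% (6.11–7.32%) PN5-only. Among the 10385 high in CpG the order was turned, with 4.90% (4.50–5.33%) and 6.22% (5.77–6.70%), and among the 3831 between them it was 3.55% and 6.55%. A CpG-high promoter here held a stretch of 500 bp with a CpG ratio of at least 0.75 and a GC content of at least 55%, and a CpG-low promoter none above 0.48.

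The promoters with the strongest peaks belonged to genes outside the families. On the 14 hpa side Ybx1, for an RNA-binding protein, had a fold enrichment of 5.92 in a peak over 13.5% of the promoter, and its promoter was covered over 20.7% in CC, 35.8% at 6 hpa and 33.9% at the 2-cell stage. Henmt1, for the methyltransferase of piRNAs, had 4.57 with 100% of the promoter covered at 14 hpa and at the 2-cell stage. Gsx2, a homeobox gene of the forebrain, had 4.44 and was covered at 6 hpa, 14 hpa and the 2-cell stage (66.2%, 40.2% and 79.1%) but not in CC. Timp2, an inhibitor of metalloproteinases, had 4.24, and Gabrb1, a subunit of the GABA receptor, 4.23. On the PN5 side Spata45 had 4.37, Cntn1, a neuronal adhesion gene, 4.13, and Alad, for an enzyme of heme synthesis, 4.08, with 60.6% of the Alad promoter covered. Polr3gl, a subunit of RNA polymerase III, had 3.81. Apart from Polr3gl, at 15.5%, these PN5-only promoters had no cover in CC.

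Where both embryos marked a body, the fold of the called peaks was similar. Fold is relative to each list's own input, so it does not compare the amount of the mark between embryos. Over the 131 bodies marked in both, the median fold was 2.83 at 14 hpa and 2.93 in PN5, with 61 higher at 14 hpa and 70 higher in PN5. The median fold of the 14 hpa-only bodies in their own list was 2.79 and that of the PN5-only bodies 2.95. Over all bodies with a peak base it was 2.94 at 14 hpa and 2.91 in PN5. Over the 20807 genes Spearman's rho of body cover was 0.61 for 14 hpa and CC, 0.42 for 14 hpa and PN5 and 0.23 for PN5 and CC. These correlations are across genes, which are not independent and share the ease with which reads map to them.

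Over 51229 annotated genes of every type, 2404 bodies (4.69%) were 14 hpa-only and 885 (1.73%) PN5-only. The types differ in length, and among protein-coding genes short bodies fell in both classes more often. The median length was 17629 bp for protein-coding genes, 546 bp for processed and 1285 bp for unprocessed pseudogenes and 90 bp for miRNA genes. The part of length in the shares below was not tested. Of 8924 processed pseudogenes, copies made by reverse transcription, 1088 (12.2%) were 14 hpa-only and 253 (2.84%) PN5-only, and of 1789 unprocessed pseudogenes, which arise by gene duplication, 283 (15.8%) and 36 (2.01%). The variable segments of antigen receptors, which are joined in lymphocytes, had 106 of 518 bodies 14 hpa-only (20.5%) and 10 (1.93%) PN5-only. Immunoglobulin segments gave 90 of 348 and 6, and T cell receptor segments 16 of 170 and 4. With the 14 hpa list cut to the PN5 length, 49 immunoglobulin segments were 14 hpa-only and 11 PN5-only. Genes for miRNAs went the other way, with 104 (5.06%) and 118 (5.74%) of 2054, as did ribosomal RNA genes, with 10 (3.12%) and 21 (6.54%) of 321, antisense genes, with 24 (0.824%) and 40 (1.37%) of 2913, and bidirectional promoter lncRNAs, with 0 and 2 of 190.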

How the data were processed

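The series holds 74 native ChIP-seq libraries (H3K9me3 and input; MNase digestion, ULI-NChIP). Per the labels and methods, the authors trimmed reads with cutadapt 1.16, aligned them to mm10 with BWA, removed duplicates with Picard, pooled the replicates of a group with an equal number of reads drawn per group, and called broad peaks over input with MACS2, whose version and threshold are not given in the sources used here. The deposited lists, 10 in all and 1 per group, give each peak's position, fold over input, −log10 p and −log10 q. All the values used here are positions, the deposited fold (a ratio) and the deposited −log10 q.

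Peaks were intersected with GENCODE M21 genes in Python 3.11.15 with numpy 2.4.6 and pandas 2.3.3. Alternatives changed the cover that counts as marked or not marked, the promoter rule, the peak strength, the list length and the joining of peaks.

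The genes compared and the 51 gene lists were chosen with earlier results of these data known. Genes were named by rule: the 10 longest covered bodies and the 10 highest promoter folds of each class, the 5 runs with most genes, 2 members of each list in each direction, all clusters in a class, and the marked members of the lists for early development and chromatin. Any other gene named was chosen after its values were seen. Promoter sequences are from RefSeq (GRCm38.p6), whose gene starts can differ from those of GENCODE.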

Additional observations from a re-analysis of the deposited data

Results flagged for a closer look

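The X chromosome was outside the autosomal comparison, but the same rule was applied to it with no control group to set the result against. Of 948 X-linked protein-coding bodies, 117 (12.3%, 95% Wilson interval 10.4–14.6%) were marked at 14 hpa and not in PN5, and 2 (0.211%, 0.0579–0.766%) the reverse. On the autosomes the shares were 1.40% and 0.923%. The SCNT embryos descend from female cells and the zygotes are of both sexes, so sex and the way the embryos were made cannot be told apart here.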

How the results depend on the processing

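No paired analysis was possible because each group has 1 pooled peak list and no result comes from a test across samples, so no replicate could be left out either. Of 91 recomputed values, 46 stayed within 1.5 times their main value, 42 moved further and 3 changed the balance between the classes, and the causes were not tested. Counts are given as 14 hpa-only, then PN5-only, then their difference where it moved. Bodies (292, 192, difference 100) came to 665, 699 and -34 with marking from 25% cover, to 145 and 55 with marking from 75%, to 473 with a difference of 190 when under 50% counted as not marked, and to a difference of 66 when only bodies with no peak base did. Promoters (1199, 1338, difference -139) came to 338, 388 and -50 when 50% of the promoter had to be covered, and to a difference of -62 within 500 bases of the start. Without peaks of a −log10 q under 2, bodies had 102 PN5-only and a difference of 241, promoters 623 PN5-only and a difference of 373, clusters 0 PN5-only and runs 1 PN5-only. With a fold of at least 3, bodies came to 101, 97 and 4, and promoters to 281, 506 and -225. With the 14 hpa list cut to the length of the PN5 list, which left 60272 peaks, 14 hpa-only bodies came to 134 with a difference of -131, promoters to 347 with a difference of -1248, clusters to 2 and runs to 11. Runs came to 42 when under 50% counted as not marked. Of 36 counts for single gene lists, 22 stayed within 1.5 times and 14 moved. Neither the depth of single libraries nor their spread can be read from pooled lists.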
